A study of Mus musculus with 12 samples.

Results

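The genes described here are 32 members of the p53 pathway in mouse C2C12 myoblasts, chosen as a list of known regulators and targets of p53. The choice was made with earlier results of these data known. Shares of members set beside all genes therefore describe this list and do not test the pathway. All 32 were found among the 25774 genes to which the deposited transcripts could be matched, and all 32 passed the filter on low values that left 13076 genes for testing (a TPM of 1 or more in 3 or more libraries, where TPM is a level corrected for transcript length and scaled to a sum of 1000000 per library). By role they comprise p53 and its direct regulators (4 genes), growth arrest and checkpoint genes (6), death receptors (3), the mitochondrial apoptosis pathway (6), other apoptosis and survival signalling (6), DNA repair and nucleotide supply (5), and redox and metabolism (2).

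C2C12 is an established mouse myoblast line that leaves the cell cycle and fuses into multinucleated myotubes when serum is lowered. Poly(A) RNA was sequenced from 12 libraries in 4 groups of 3, formed by siRNA and by day. The siRNA was either a control duplex (siControl) or a duplex against Kctd10 (siKctd10), which encodes a substrate adaptor of CUL3 ubiquitin ligases. D0 cells were kept below confluence in 10% fetal bovine serum and collected 48 h after siRNA. D2 cells were moved to 2% horse serum 24 h after siRNA and collected 48 h after that move, so day, serum, density and time since siRNA changed together and cannot be told apart. Every group received an siRNA, and Kctd10 was targeted with a single duplex. Whether the 3 libraries of a group are separate cultures is not in the labels, and the tests therefore speak only of the spread among these libraries, part of which may be technical.

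p53 is a transcription factor that is held at a low level by the ubiquitin ligase MDM2 and its relative MDM4, and that is stabilised by DNA damage and other stress. Active p53 binds response elements near its target genes, among them Mdm2 itself, which closes a feedback loop. Its targets stop the cell cycle, help DNA repair or drive apoptosis, and in myoblasts the arrest that precedes fusion uses some of the same genes, such as the cyclin-dependent kinase inhibitor Cdkn1a. Most control of p53 acts on its protein, which was not measured here.

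Both siRNAs are shown because the comparisons below depend on them, and some promoter elements are shown as a description that no comparison used. The first 2 lines are the siRNA guide strands, with bases 2 to 8 (the seed, which can also repress other transcripts) in capitals. The other lines are 30-base windows of member promoters, with exact matches to the p53 decamer, the repeated unit of the p53 response element, in capitals.
siKctd10 guide strand: uUAUCGUCagaauugcugg
siControl guide strand: uCAGAAAAcauguaaacca
Trp53: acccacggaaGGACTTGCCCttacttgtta
Mdm2: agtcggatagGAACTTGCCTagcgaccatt
Ppm1d: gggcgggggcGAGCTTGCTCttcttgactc
Ccng1: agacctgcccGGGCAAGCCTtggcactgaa
Sesn1: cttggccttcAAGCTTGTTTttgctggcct
Aen: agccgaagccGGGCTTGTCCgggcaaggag
Bax: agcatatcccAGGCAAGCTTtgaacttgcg
These windows come from RefSeq promoters of build GRCm38.p6, each 250 bases before to 50 after a gene start, searched on both strands for the p53 decamer consensus. They lie at chr11:69580274-69580303 (Trp53, + strand), chr10:117710925-117710954 (Mdm2, - strand), chr11:85311112-85311141 (Ppm1d, +), chr11:40755452-40755481 (Ccng1, -), chr10:41887256-41887285 (Sesn1, +), chr7:78895927-78895956 (Aen, +) and chr7:45467080-45467109 (Bax, -).

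Of the 24 members with a promoter in that table, 9 held at least 1 exact decamer (37.5%), against 9.55% of 27025 genes. Besides those printed they were Ei24 and Polk. Counted per promoter window, the shares were 30.3% for members and 8.36% for all genes. The members were chosen as known regulators and targets of p53, so a higher share is no test of the list. No member had a pair of decamers at most 13 bases apart, an arrangement found in 0.074% of all genes. The windows of Sesn1 and Polk belong to internal starts that these cells used little. The Sesn1 transcript of that start was at 0 TPM in 11 of the 12 libraries, and the one that carried the level of Sesn1 starts at chr10:41810574, upstream of the window. For Polk the transcript of that start reached at most 2.76 TPM. The decamer of Mdm2 lies 186 bases before its annotated gene start. It is not at the second promoter of Mdm2, which carries its p53 sites and is not shown. A match to these letters is a description of the window and not evidence of binding. The siKctd10 seed site GACGATA, read in the transcript, occurred in an annotated 3′ UTR of 158 of 11996 kept genes (1.32%) and, among the 32 members, in Mdm2 only. The siControl seed site TTTTCTG was far more common, in 31.0% of those genes and in 13 members.

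As a check of the labels, Kctd10 was at 272, 258 and 269 TPM in the D0 siControl libraries and at 24.8, 24.5 and 19.97 in the D0 siKctd10 libraries. At D2 it was at 285, 276 and 289 against 34.3, 26.8 and 35.1. It fell on both days, with log2 fold changes of -3.48 (SE 0.11, limma adjusted p = 6.8e-07) and -3.12 (SE 0.11, limma adjusted p = 2e-06). Here and below a fold change is a difference of mean log2(TPM + 1), which understates the change of genes with low TPM, and a gene is called when its limma p, Benjamini-Hochberg adjusted over 13076 genes, is under 0.05.

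The libraries held an estimated 12.51 to 18.08 read pairs in units of 1000000, and 12023 to 12604 genes reached a TPM of 1. Day separated them on the first principal component (41% of the variance), and the siKctd10 libraries numbered 3 lay farthest out on the second (10.4%), which separated the siRNAs. The cells carried their muscle label, since 10 skeletal muscle markers summed to 612 to 730 TPM per library at D0 and all 10 rose with differentiation in siControl cells. Defining markers of other cell types were low or at 0. Ptprc, Adgre1, Kdr, Tie1, Adipoq, Plin1, Fabp4, Lep, Snap25 and Gfap were listed at 0 in every library, and the levels of the leukocyte list (23.2 to 47.6 TPM summed) and the adipocyte list (10.5 to 26 TPM) came almost wholly from Cd14 and Cebpa. Cebpa, a transcription factor of adipocytes and other cells, rose with siKctd10 at D2 (1.03, limma adjusted p = 0.0034), where the adipocyte list stood at 10.5 to 13.6 TPM in siControl and 23.7 to 26 TPM in siKctd10, and its part in the D2 values below was not tested. In bulk RNA, fewer cells of a type and less RNA per cell cannot be told apart.

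The members spanned a wide range of levels. Ccng1 (median over the 12 libraries 548 TPM), the glutathione peroxidase Gpx1 (545 TPM), Phlda3 (426 TPM) and Plk2 (349 TPM) were the most abundant. Fas (1.52 TPM), Ddb2 (1.99 TPM) and Perp (2.88 TPM) were the least. Trp53 itself stood at a median of 74.4 TPM, below Mdm2 at 104 TPM and close to Mdm4 at 70.3 TPM.

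**Figure D1:**
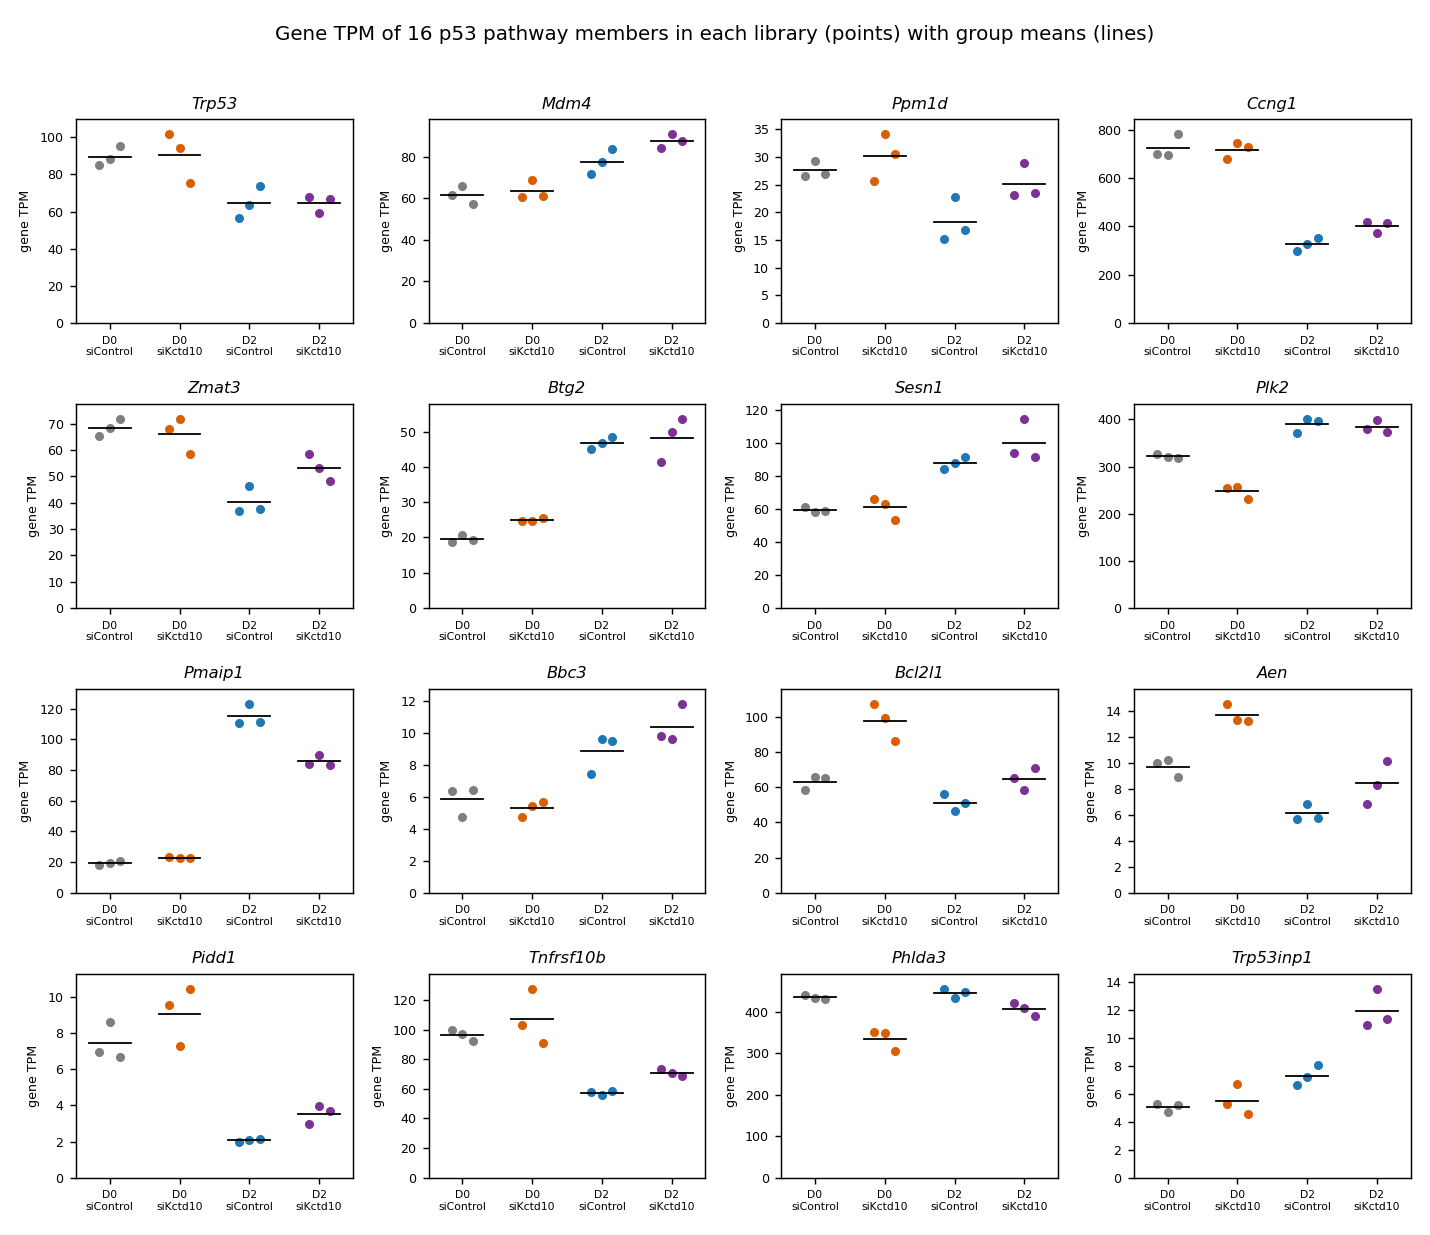
Gene TPM (linear axis from 0) of 16 members in each of the 12 libraries, with the mean of each group as a line. Pmaip1 shows the widest separation of the days, while the 3 libraries of siKctd10 lie below the 3 of siControl for Plk2 and Phlda3 at D0 and for Pmaip1 and Phlda3 at D2.

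Differentiation in siControl cells split the pathway instead of moving it as a block. Of the 32 members 10 rose, 9 fell and 13 were not called, so 59.4% were called, against 35.5% of all genes (21.4% higher and 14% lower). The days did not overlap for 10 members that were higher at D2 (31.2%, against 30.8% of all genes) and 12 that were lower (37.5%, against 21.6%). The median log2 fold change was 0.05, against 0.09 over all genes, and it was -0.05 after median-ratio scaling and -0.10 after quantile normalization. The balance of calls depended on the scaling. Members called higher and lower were 7 and 12 after median-ratio scaling (2441 and 2251 of all genes). They were 6 and 11 after quantile normalization (2219 and 2309), and 5 and 11 with voom on estimated read pairs (2343 and 2208). The rises included the growth arrest genes Btg2 and Sesn1 and the BH3-only genes Pmaip1 and Bbc3, and the falls included Trp53, its phosphatase Ppm1d, Ccng1 and Pidd1.

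Trp53 fell with differentiation. Its TPM was 85.1, 88.4 and 95.2 in the D0 siControl libraries and 56.4, 63.8 and 73.6 at D2. The groups did not overlap, and the log2 fold change was -0.47 (SE 0.13, limma adjusted p = 0.018), a call lost without the D0 library numbered 3 (adjusted p = 0.061) or the D2 library numbered 1 (adjusted p = 0.065). Ppm1d, the WIP1 phosphatase that switches off p53 and its upstream kinases, was at 26.6, 29.3 and 26.9 TPM at D0 and 15.3, 22.7 and 16.9 at D2. It fell by 0.59 on the log2 scale (adjusted p = 0.019), with no overlap between the days, and lost its call without the D0 library numbered 2 or the D2 library numbered 1 or 3 (adjusted p = 0.062 to 0.068). Mdm4 rose by 0.33 (adjusted p = 0.017), from 61.7, 65.9 and 57.4 to 71.8, 77.3 and 83.5 TPM, and was not called with voom on estimated read pairs (0.23, adjusted p = 0.067) or without the D0 or the D2 library numbered 3 (adjusted p = 0.063 and 0.066). Mdm2 was not called (0.06, adjusted p = 0.91), and its D2 libraries at 64.1, 113 and 121 TPM lay on both sides of the D0 values of 92.3, 93.99 and 89.7.

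Growth arrest genes moved in opposite directions. Btg2, an antiproliferative co-factor of transcript decay, rose from 18.6, 20.6 and 19.4 TPM to 45.0, 46.8 and 48.6 (log2 fold change 1.22, SE 0.11, adjusted p = 1.3e-05). Sesn1, a stress-induced inhibitor of mTORC1 signalling, rose from 61.4, 58.2 and 59.0 TPM to 84.3, 87.6 and 91.4 (0.55, adjusted p = 0.0026). In contrast Ccng1, cyclin G1, the most abundant member, fell from 699, 695 and 780 TPM to 299, 326 and 350 (-1.15, SE 0.08, adjusted p = 3.2e-06). Zmat3, an RNA-binding p53 target, fell from 65.6, 68.6 and 71.7 TPM to 37.0, 46.4 and 37.6 (-0.76, adjusted p = 0.00071). The days did not overlap for any of these 4 genes, and each kept its call under every alternative tried. Plk2, a polo-like kinase, rose by 0.28 (adjusted p = 0.0056) but not with voom (0.18, adjusted p = 0.054), and Plk3 was not called (-0.36, adjusted p = 0.065).

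The apoptosis genes gave the largest change of the list in each direction. Pmaip1, which encodes the BH3-only protein NOXA, rose from 17.9, 19.6 and 20.4 TPM to 110, 123 and 112 (log2 fold change 2.51, SE 0.08, adjusted p = 3.6e-08). Pidd1, the scaffold of the PIDDosome that activates caspase-2, fell from 6.96, 8.65 and 6.70 TPM to 1.96, 2.07 and 2.15 (-1.46, SE 0.16, adjusted p = 6.2e-05). Both kept their calls under every alternative. Bbc3, the BH3-only protein PUMA, rose by 0.53 (adjusted p = 0.023), from 6.36, 4.78 and 6.46 TPM to 7.45, 9.67 and 9.51. That call was lost after quantile normalization (0.32, adjusted p = 0.13), when the siControl groups were fitted alone (adjusted p = 0.062) and without the D0 library numbered 2 or the D2 library numbered 2 or 3 (adjusted p = 0.075 to 0.084).

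Tnfrsf10b, the mouse TRAIL death receptor, fell from 100, 96.9 and 92.5 TPM to 57.9, 55.8 and 58.6 (-0.74, adjusted p = 0.00052). Aen, an exonuclease that acts in p53-driven apoptosis, fell from 9.99, 10.3 and 8.91 TPM to 5.71, 6.85 and 5.78 (-0.59, adjusted p = 0.0091). Perp, a membrane protein of desmosomes and apoptosis, was at 2.40, 2.90 and 2.89 TPM at D0 and 1.12, 1.47 and 1.62 at D2 (-0.63, adjusted p = 0.035), a call lost without any single siControl library (adjusted p = 0.052 to 0.11) or with a pseudocount of 5. The calls of Tnfrsf10b and Aen held under every alternative. Fas (0.06) and Eda2r (0.42), the other death receptors, were not called.

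Among DNA repair genes Xpc, the damage sensor of global genome repair, rose from 15.8, 14.5 and 15.1 TPM to 21.6, 27.3 and 23.3 (0.63, adjusted p = 0.015). Its call was lost without the D2 library numbered 2 (adjusted p = 0.058). Some weaker rises sat close to the threshold, namely the autophagy and stress protein Trp53inp1 (0.45, adjusted p = 0.042), the ribonucleotide reductase subunit Rrm2b (0.42, adjusted p = 0.045) and the damage-binding protein Ddb2 (0.35, adjusted p = 0.04). None of the 3 was called after median-ratio scaling or quantile normalization, where Ddb2 was at 0.28 and 0.07, and each lost its call without any single siControl library, except that Rrm2b kept it without the D0 library numbered 3. Per library, Trp53inp1 went from 5.31, 4.73 and 5.23 to 6.62, 7.20 and 8.09 TPM, Rrm2b from 13.3, 16.3 and 20.1 to 21.4, 22.2 and 23.0, and Ddb2 from 1.70, 1.68 and 1.76 to 2.55, 2.23 and 2.59. Tigar, a fructose bisphosphatase that lowers glycolytic flux, fell by 0.36 (adjusted p = 0.018) but not without the D0 library numbered 3 or the D2 library numbered 1. Of the members with a promoter decamer, Trp53, Ppm1d, Ccng1 and Aen fell, Sesn1, whose window lies at the little-used start, rose, and Mdm2, Bax, Ei24 and Polk were not called.

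In siKctd10 cells differentiation called 22 of the 32 members, 14 higher and 8 lower (68.8%, against 36.4% of all genes, of which 23.1% higher and 13.3% lower). The median was 0.25, against 0.12 over all genes, and 0.13 after median-ratio scaling, which lowered the median of all genes by over 0.1 to 0.00. After quantile normalization it was 0.24, against -0.02 over all genes. Genes called in both arms moved in the same direction in each, led by Pmaip1 (2.51 in siControl and 1.87 in siKctd10), Btg2 (1.22 and 0.92), Pidd1 (-1.46 and -1.15) and Ccng1 (-1.15 and -0.83). Trp53 fell by 0.47 in each arm, and in siKctd10 cells its call was lost when those groups were fitted alone (adjusted p = 0.053) and without the D0 library numbered 1 or 2 or the D2 library numbered 2 (adjusted p = 0.058 to 0.068). Called in siKctd10 cells only were rises of Eda2r (1.06), Fas (1.05), Mdm2 (0.90, adjusted p = 0.033) and Phlda3 (0.28) and falls of Bcl2l1 (-0.58) and Plk3 (-0.52), while Zmat3, Perp and Ppm1d were called in siControl cells only. In siKctd10 cells Fas kept its call under every alternative. Mdm2 lost it after median-ratio scaling (0.77, adjusted p = 0.065), when the siKctd10 groups were fitted alone and without any single siKctd10 library (adjusted p = 0.067 to 0.11) other than the D0 library numbered 3. Phlda3 lost it after median-ratio scaling (0.15, adjusted p = 0.077), with voom and when those groups were fitted alone, Bcl2l1 with identical introns only (-0.32, adjusted p = 0.2), Eda2r without the D0 or the D2 library numbered 1, and Plk3 without the D0 library numbered 1 (adjusted p = 0.051). The difference between the arms was tested by the interaction below and did not pass for any of these 9 genes.

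**Figure D2:**
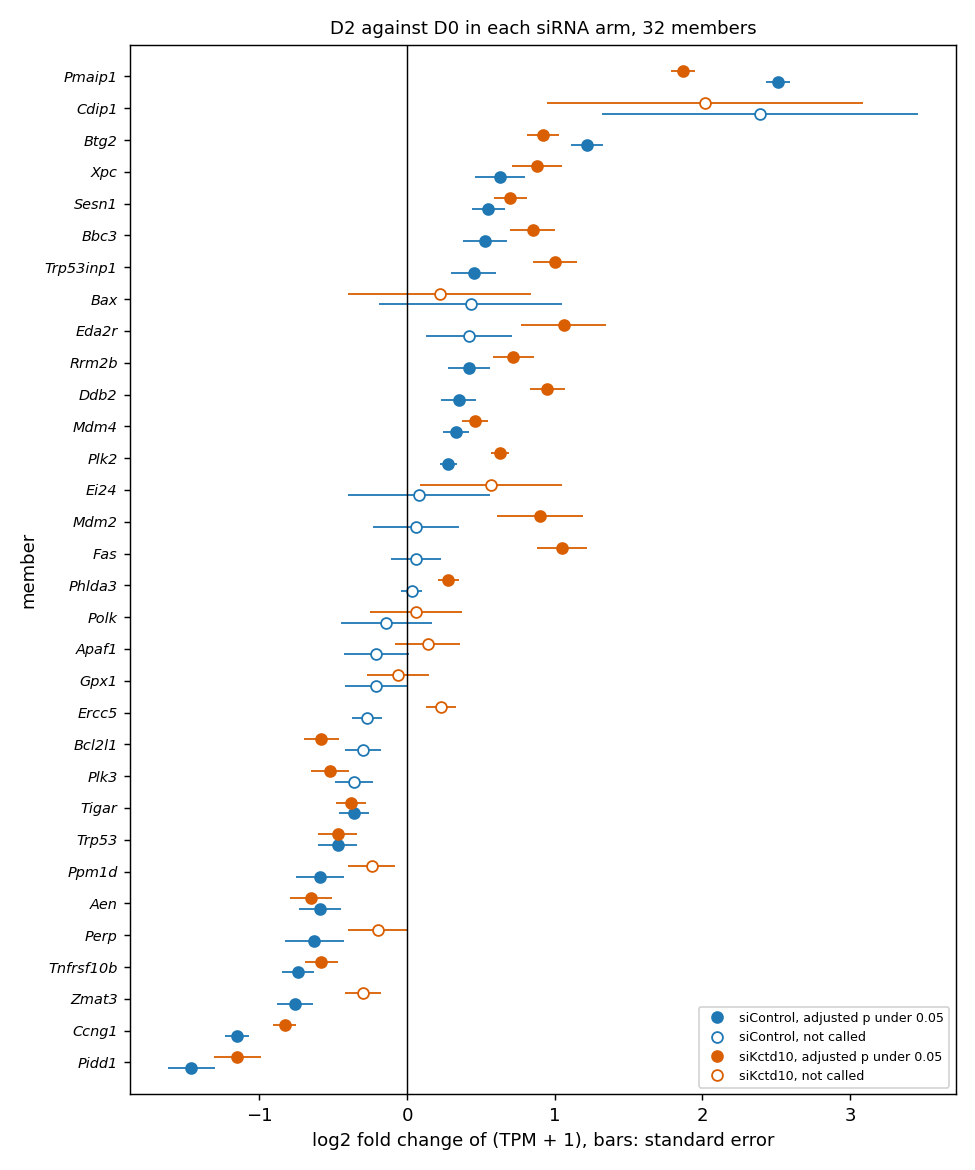
Log2 fold change of TPM + 1 for D2 against D0 in siControl (blue) and siKctd10 (orange) cells for the 32 members, with standard errors as bars and filled points for adjusted p under 0.05. Pmaip1 is at the top with 2.51 and 1.87, Pidd1 at the bottom with -1.46 and -1.15, and Cdip1 has the widest error (SE 1.07).

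In undifferentiated cells siKctd10 moved few members. The anti-apoptotic Bcl2l1 rose, the kinase Plk2 and the AKT inhibitor Phlda3 fell, and 29 of 32 were not called, so 9.38% were called against 2.45% of all genes (1.48% higher and 0.964% lower). The members divided into 17 higher means (53.1%, against 56.2% of all genes) and 15 lower, with a median of 0.01, against 0.05 over all genes, and 14 were higher under either scaling. The siRNA groups did not overlap for 4 members that were higher (12.5%, against 14.4% of all genes) and 3 that were lower (9.38%, against 8.78%), which is near the background in both directions.

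Bcl2l1, which encodes BCL-XL, lies at chr2:152780668-152831728 on the minus strand (GENCODE on GRCm38, as for the genes below). Its TPM was 58.2, 66.0 and 65.0 in siControl and 107, 99.1 and 86.1 in siKctd10. Every siKctd10 library lay above every siControl library, with a log2 fold change of 0.62 (SE 0.12, adjusted p = 0.024). The rise was present in both of its main transcripts, the 3-exon form (36.0 ± 3.01 to 57.0 ± 5.17 TPM, SD, n = 3) and a 5-exon form that overlaps it (26.4 ± 2.86 to 39.9 ± 5.68 TPM). Since the forms overlap, their estimates are not separate evidence. The 5-exon form was matched by exon overlap only, and it extends outside the interval above to chr2:152758732. It was at 0 TPM in the D2 siControl and the D2 siKctd10 library numbered 2. With only transcripts of identical introns the value was 0.64 (adjusted p = 0.11), and the call was also lost without any single D0 library (adjusted p = 0.067 to 0.098) other than the siKctd10 library numbered 3.

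Plk2, at chr13:110395046-110400844 on the plus strand, was at 326, 320 and 318 TPM in siControl and 254, 257 and 232 in siKctd10. Its log2 fold change was -0.38 (SE 0.06, adjusted p = 0.015), and the groups did not overlap. Phlda3, at chr1:135766119-135769136 on the plus strand, was at 439, 434 and 431 TPM against 351, 348 and 305, again with no overlap (-0.38, SE 0.07, adjusted p = 0.02). The fall of Phlda3 lay in its 2-exon transcript (314 ± 10.7 to 225 ± 19.9 TPM, SD, n = 3), while its single-exon transcript was at 121 ± 12 and 110 ± 12.3. Plk2 lost its call without the D0 siControl library numbered 1 (adjusted p = 0.066) or 2 (adjusted p = 0.057), and Phlda3 without any of the 3 (adjusted p = 0.056 to 0.076). When the D0 groups were fitted alone, none of these 3 members was called (adjusted p = 0.12 to 0.15). None of the 3 holds the siKctd10 seed site in an annotated 3′ UTR. Bcl2l1, like Trp53inp1 below, holds the seed site of the siControl guide, whose part in its difference was not tested.

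Regulators of p53 did not pass at D0. Trp53 was at 102, 94.1 and 75.3 TPM with siKctd10 and its log2 fold change was 0.00 (SE 0.13). Mdm2 was at 59.7, 56.5 and 116 TPM (-0.33, SE 0.29, adjusted p = 0.63), so that 2 of its libraries lay below and 1 above the siControl range. Pmaip1 (0.23, adjusted p = 0.2), Btg2 (0.34, adjusted p = 0.14) and Aen (0.45, adjusted p = 0.15) had siKctd10 libraries that all lay above siControl without being called.

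At D2 the effect of siKctd10 on single members was again small, but most of them leaned the same way. Trp53inp1 rose, Pmaip1 fell and 30 of 32 were not called, so 6.25% were called against 4.75% of all genes (2.83% higher and 1.92% lower). Of the 32 members 27 had a higher mean with siKctd10 (84.4%, against 60% of all genes), with a median of 0.29 against 0.08. The 3 siKctd10 libraries lay above the 3 siControl libraries for 15 members (46.9%, against 18.5% of all genes) and below them for 2 (6.25%, against 9.91%). Among 49 other p53 pathway genes, described further below, 34 had a higher mean (69.4%), with a median of 0.19. Of these 49, 11 lay above without overlap (22.4%) and 3 below (6.12%), closer to the shares of all genes. Under median-ratio scaling and quantile normalization 31 and 32 of them were higher, with a median of 0.11 each time. The members share 12 libraries and were chosen with earlier results of these data known, so these counts describe the list and carry no p.

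Other scalings lowered the members and all genes together. After median-ratio scaling 23 of 32 members were higher (49.6% of all genes), with a median of 0.20 against 0.00 over all genes, and 8 members without overlap above (25%, against 12.6% of all genes). After quantile normalization 22 were higher (50.7% of all genes), with a median of 0.20 against 0.01, and 9 without overlap (28.1%, against 13.2%). Leaving out each library in turn gave 24 to 27 higher members and a median of 0.14 to 0.29. The median was 0.14 without the D2 siControl library numbered 1, against 0.25 without the D2 siKctd10 library numbered 3, when 25 members were higher.

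Members with 1 and with several transcripts are given apart, and the difference between them was not tested. For the 10 members represented by a single transcript, 8 had a higher mean with a median of 0.11, and under the scalings 6 and 5 did, with a median of 0.02 each time. The 22 members with several or overlapping transcripts had 19 higher means and a median of 0.31, and 17 and medians of 0.22 and 0.23 under the scalings. Estimates of such genes were less stable among genes with a mean TPM of at least 5. There 27% of 7428 of them had replicates over 3-fold apart in some group, which held for 6.92% of 2904 single-transcript genes. The part of transcript assignment in the lean was not tested.

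**Figure D3:**
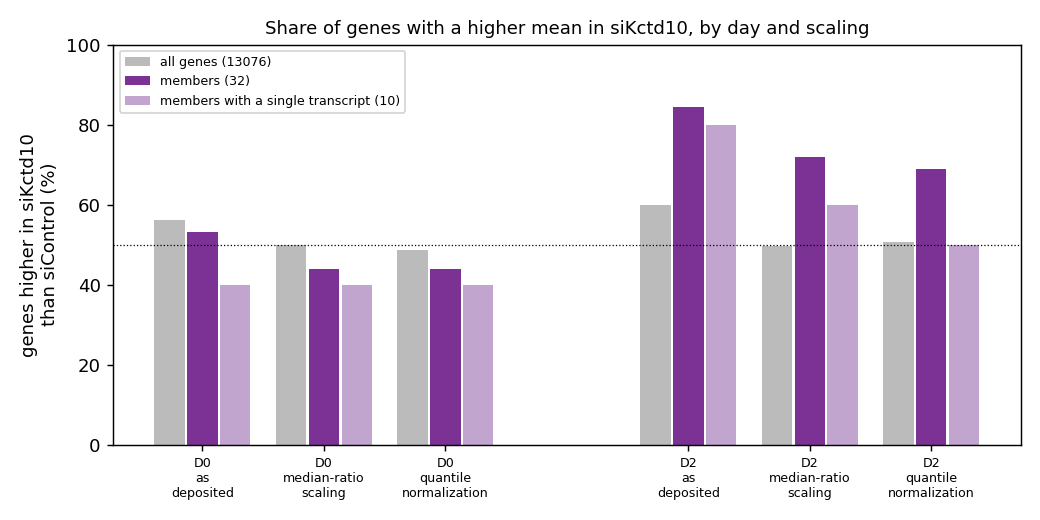
Percent of genes whose mean was higher in siKctd10 than in siControl at D0 and D2, for all 13076 genes, the 32 members and the 10 members with a single transcript, as deposited and under 2 scalings. At D2 the members stand at 84.4% as deposited against 60% of all genes, and the single-transcript members reach 50% after quantile normalization.

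By role, the higher means at D2 as deposited were spread over the pathway, beside 60% of all genes. Their total of 27 fell to 23 and 22 under the scalings, which are not split by role here. As deposited, the higher means took in all 4 regulators, 5 of 6 growth arrest genes, all 3 death receptors, 5 of 6 mitochondrial apoptosis genes, 4 of 6 other apoptosis genes, all 5 DNA repair genes and 1 of the 2 redox genes, counting Trp53 and Rrm2b, which stood at 0.00. Median log2 fold changes were 0.31 for regulators, 0.12 for growth arrest, 0.30 for death receptors, 0.27 for mitochondrial apoptosis, 0.49 for other apoptosis genes and 0.29 for DNA repair. At D0 the DNA repair median was -0.13 and that of the death receptors -0.34.

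Trp53inp1, at chr4:11156431-11174379 on the plus strand, was at 6.62, 7.20 and 8.09 TPM in siControl and 10.9, 13.5 and 11.4 in siKctd10. The groups did not overlap (log2 fold change 0.64, SE 0.15, adjusted p = 0.041). The call sat at the threshold, and was lost with a pseudocount of 0.1 (0.70, adjusted p = 0.053), after quantile normalization (0.57, adjusted p = 0.052), when the D2 groups were fitted alone (0.64, adjusted p = 0.1) and without any single D2 library (0.55 to 0.70). It was also lost without both siKctd10 libraries numbered 3 (0.67, adjusted p = 0.069) and without any of 4 single D0 libraries, the 3 of siControl and the siKctd10 library numbered 1 (adjusted p = 0.06 to 0.063).

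Pmaip1, the member with the steepest rise during differentiation, reached 110, 123 and 112 TPM in siControl at D2 but 84.0, 90.0 and 83.4 with siKctd10. It fell by 0.42 on the log2 scale (SE 0.08, adjusted p = 0.02), with no overlap. The call was lost when the D2 groups were fitted alone (adjusted p = 0.071) and without any single D2 library (-0.37 to -0.45, adjusted p = 0.051 to 0.079) other than the siKctd10 library numbered 2. It was also lost without both siKctd10 libraries numbered 3 (-0.4, adjusted p = 0.065). At D0 the same gene was at 17.9, 19.6 and 20.4 TPM in siControl and 23.0, 22.8 and 22.6 in siKctd10. Skeletal muscle markers moved beside it at D2, where 5 of 10 fell with siKctd10 (50%, against 1.92% of all genes) and none rose. The summed level of these markers was 4720 to 4810 TPM in siControl and 3050 to 3550 in siKctd10. Their part in the difference of Pmaip1 was not tested. None of 16 proliferation markers was called at D2, but 5 had an unadjusted limma p under 0.05 (19.2% of all genes did). Their siKctd10 libraries lay below siControl without overlap for 6 of the 16 (37.5%, against 9.91% of all genes), and their summed level was 1670 to 1840 TPM in siControl and 1510 to 1650 in siKctd10. Their part in the values of the members was not tested.

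**Figure D4:**
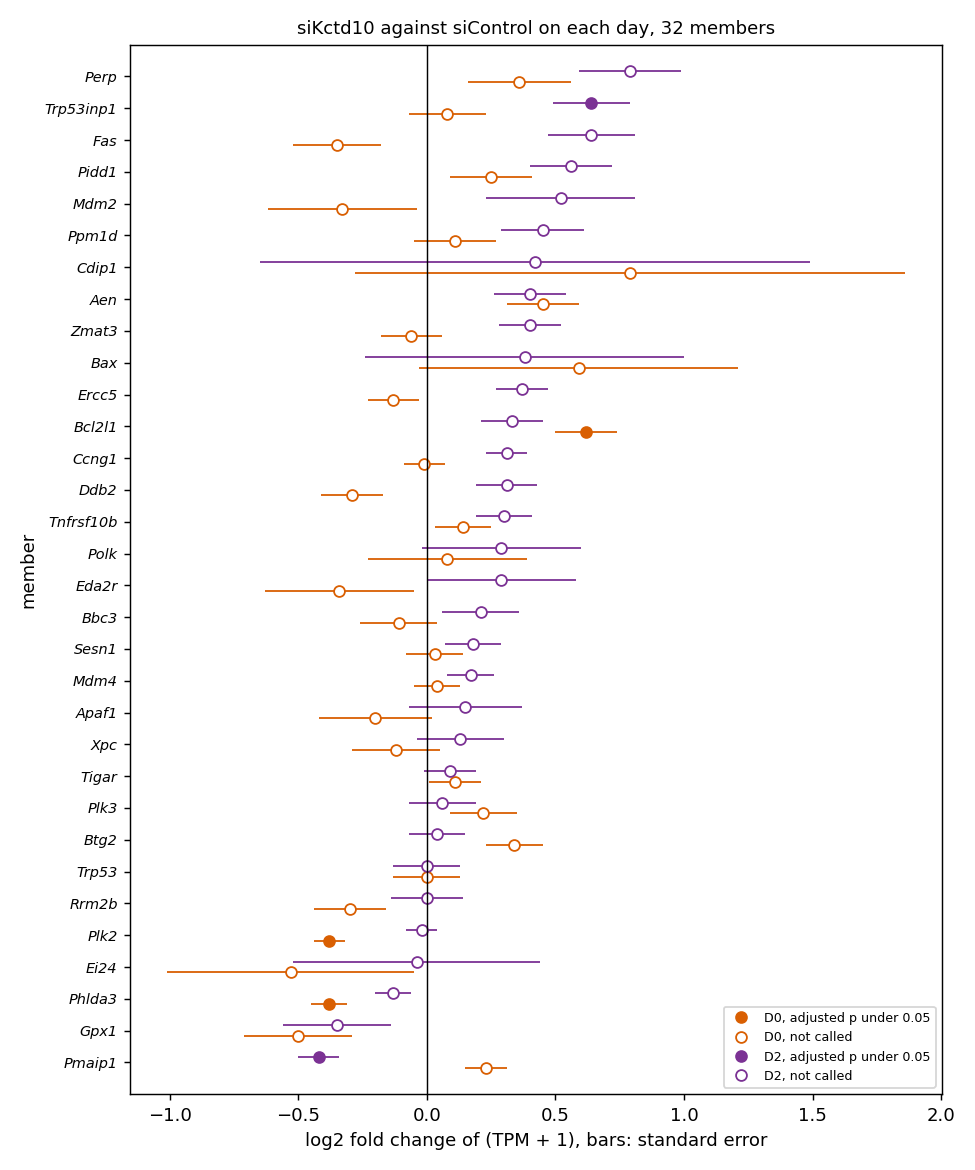
Log2 fold change of TPM + 1 for siKctd10 against siControl at D0 (orange) and D2 (purple) for the 32 members, ordered by the D2 value, with standard errors as bars and filled points for adjusted p under 0.05. At D2 27 of 32 points lie above 0, yet only Trp53inp1 (0.64) and Pmaip1 (-0.42) are filled, and at D0 Bcl2l1 (0.62), Plk2 (-0.38) and Phlda3 (-0.38) are.

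Among the members that did not pass at D2, several lay close to the threshold with no overlap between groups. Fas was at 1.06, 1.80 and 1.65 TPM in siControl and 3.58, 2.70 and 2.41 in siKctd10 (0.64, adjusted p = 0.07). Perp was at 1.12, 1.47 and 1.62 TPM against 3.46, 2.87 and 3.16 (0.79, adjusted p = 0.06). Both are genes of low abundance, and Perp is represented by a single transcript. Ccng1 was at 299, 326 and 350 TPM against 418, 374 and 413 (0.31, adjusted p = 0.065), Ercc5, a repair endonuclease, had 0.37 (adjusted p = 0.063), and Pidd1 had 0.56 (adjusted p = 0.082).

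Trp53 did not differ beyond its spread at D2, with 67.8, 59.2 and 66.7 TPM in siKctd10 inside the siControl range of 56.4 to 73.6 (0.00, SE 0.13, adjusted p = 0.99). Mdm2, the feedback inhibitor, was at 139, 132 and 142 TPM in siKctd10 and 64.1, 113 and 121 in siControl. Its siKctd10 libraries all lay above, but it was not called (0.52, SE 0.29, adjusted p = 0.37).

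The interaction of day and siRNA asks whether the effect of siKctd10 differed between D2 and D0. Pmaip1 was the only member called (3.12%, against 0.742% of all genes), with -0.65 (SE 0.12, adjusted p = 0.042), from 0.23 at D0 to -0.42 at D2. This call was lost when any single library of the 12 was left out (adjusted p = 0.056 to 0.11) with a pseudocount of 0.1 (adjusted p = 0.051) and without both siKctd10 libraries numbered 3 (adjusted p = 0.11). The largest positive values were those of Fas (0.99, adjusted p = 0.13), Mdm2 (0.84, adjusted p = 0.53), Eda2r (0.64, adjusted p = 0.68) and Ddb2 (0.61, adjusted p = 0.17), and 24 of 32 members were positive (53.2% of all genes were), with a median of 0.28 against 0.025 over all genes.

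Some members could not be measured well in these files. Cdip1, an apoptosis gene, was at 5.19 TPM in 1 D2 siControl library and at 84.6 and 84.7 in the others, and at 89.5, 91.0 and 11.97 with siKctd10, a spread of up to 16.3-fold inside a group. Bax, the pore-forming effector of apoptosis, ran from 7.24 to 41.0 TPM with every group overlapping every other. Ei24 was at 17.4 TPM in 1 D0 siKctd10 library and at 63.8 to 88.1 in the other 11. For Bax, Cdip1 and Ei24 no comparison passed, and their standard errors of 0.62, 1.07 and 0.48 leave changes of that size undetectable here. Larger ones can go uncalled too, since Cdip1 had differentiation values of 2.39 in siControl and 2.02 in siKctd10. Its main transcript was at 6.99, 2.59 and 3.15 TPM in D0 siControl and at 3.27, 14.4 and 10.7 in D0 siKctd10.

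**Figure D5:**
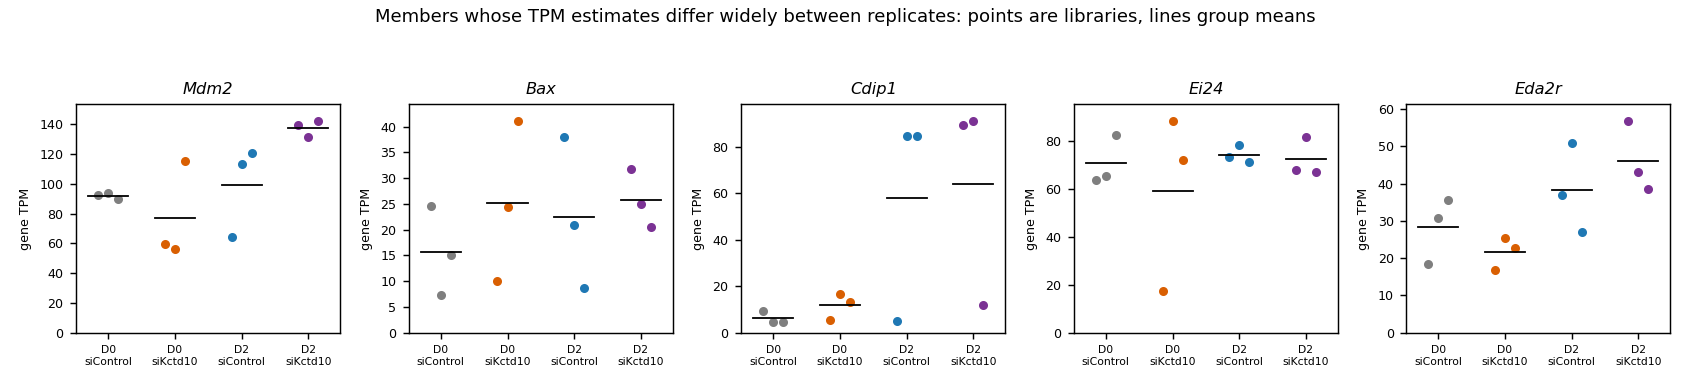
Gene TPM (linear axis from 0) of Mdm2, Bax, Cdip1, Ei24 and Eda2r in each library, with group means as lines. Cdip1 alternates between values a low level (5.19 and 11.97 TPM) and a high level (84.6 to 91.0 TPM) within both D2 groups, and Bax overlaps between all 4 groups.

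A further 55 genes of the pathway were listed for context, of which 54 were found in the files and 49 passed the filter. Differentiation in siControl cells called 23 of the 49 (46.9%, against 35.5% of all genes), 10 higher and 13 lower, with a median of -0.16 against 0.09 over all genes. Gadd45a, a stress and arrest gene, rose from 26.1, 27.9 and 20.6 TPM to 202, 186 and 178 (2.88, adjusted p = 8.4e-08), and Cdkn1a from 98.1, 85.1 and 87.6 to 274, 221 and 238 (1.42, adjusted p = 3.1e-06). The lipase Abhd4 (1.92), the p53 relative Trp63 (1.68) and the tetraspanin Cd82 (1.66) were the other large rises among called genes, and Trp63 went from at most 0.16 to at least 2.21 TPM. The largest falls among called genes were those of the spindle gene Psrc1 (-1.89), the thiamine transporter Slc19a2 (-1.83), Sesn2 (-1.57) and the ephrin receptor Epha2 (-1.05), and the cytokine Gdf15 fell by 0.57. Cd82 lost its call without any single siControl library (adjusted p = 0.051 to 0.11). Of the same 49 genes, 18 were called for differentiation in siKctd10 cells (36.7%, against 36.4% of all genes), 8 higher and 10 lower. Their median there was -0.08, against 0.12 over all genes. Cdkn2a, whose product ARF restrains MDM2, was listed at 0 in all 12 libraries.

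With siKctd10 1 of the 49 was called at D0 and 3 at D2 (2.04% and 6.12%, against 2.45% and 4.75% of all genes). Thbs1, a matricellular glycoprotein, rose on both days, from 313, 328 and 526 TPM to 1250, 1068 and 1683 at D0 (1.79, adjusted p = 0.014) and from 829, 794 and 860 to 1814, 3491 and 1858 at D2 (1.46, adjusted p = 0.019). Its D0 call was lost without both siKctd10 libraries numbered 3 (adjusted p = 0.051) or without the D0 siControl library numbered 1 or 2, its D2 call without any single D2 siControl library, and both when the groups of that day were fitted alone (adjusted p = 0.076 and 0.069). Sesn2, also a target of the ATF4 stress response, rose at D2 from 2.11, 2.76 and 4.68 TPM to 13.6, 13.8 and 10.6 (1.74, SE 0.23, adjusted p = 0.0034) and kept its call under every alternative. The small GTPase Rap2b fell at D2 (-0.41, adjusted p = 0.012) and was not called when the D2 groups were fitted alone (adjusted p = 0.077). Cdkn1a was not called on either day (-0.09 and -0.26), although its D2 libraries with siKctd10, at 215, 198 and 198 TPM, all lay below the siControl libraries.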

How the data were processed

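The members and lists were chosen with earlier results of these data known, and 1 gene of the context list is not reported here. The authors deposited 1 StringTie transcript table per library (version 1.3.3b per the file headers, but 1.1.3 per the submitters' processing notes, which also list DESeq2, HISAT, SAMtools and build mm10), with TPM for 63759 transcripts. TPM is an estimate relative to the other RNA of a library. Transcripts were matched to GENCODE genes on GRCm38 by identical introns (42608) or at least 50% of exon bases (13473). The other 7678 were left out (3.82 to 4.63% of TPM), and TPM was summed per gene. Read pairs were inferred from coverage at 202 bases per pair. No counts per gene were used.

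Values of log2(TPM + 1) were fitted with limma 3.58.1 (R 4.3.3, trend, robust, 4 group means, 12 libraries, two-sided), which was tested on simulated data. Library values are given for Trp53, Mdm2, members called with siKctd10, and up to 8 called rises and 8 falls of differentiation. From the other genes, those called with siKctd10, the 4 largest rises and falls, Cdkn1a and Gdf15 are named. Other genes were named after their values were seen. Pseudocounts, filters, scalings, matching, voom, fewer groups, a replicate block and leaving out libraries were tried. Leaving out both siKctd10 libraries numbered 3, and the counts of higher members by scaling, were chosen after seeing the data.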

Additional observations from a re-analysis of the deposited data

Results flagged for a closer look

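The effect of siKctd10 on Pmaip1 differed between the days by the interaction test (limma, adjusted over 13076 genes). It had an interaction of -0.65 (adjusted p = 0.042), with 0.23 at D0 and -0.42 at D2, and its libraries did not overlap between the siRNAs on either day. The interaction lost its call under 15 of 22 alternatives, among them leaving out any single library (adjusted p = 0.056 to 0.11).

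For Ddb2 and Slc19a2 all 3 siKctd10 libraries lay below siControl at D0 and above it at D2, but the interaction did not pass. Ddb2 had a difference of 0.61 (adjusted p = 0.17), from -0.29 to 0.31, at a TPM of 0.957 to 3.50. Slc19a2 had 0.82 (adjusted p = 0.14), from -0.47 to 0.35.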

How the results depend on the processing

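Of the members called for differentiation, 8 of 19 in siControl and 15 of 22 in siKctd10 held under every alternative, and none of the 3 called with siKctd10 at D0, the 2 at D2 and the 1 for the interaction did. With 3 libraries a group an exact permutation test could not go below p = 0.1. When each comparison's groups were fitted alone, 72 genes and 0 members passed at D0 (320 and 3 in the fit of all groups) and 252 genes and 0 members at D2 (621 and 2). Other p53 genes then numbered 0 at D0 and 1 at D2, and none of these counts was tested for a cause.

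Interaction calls numbered 97 genes, but 62 genes and 0 members with a pseudocount of 0.1, 167 genes with a pseudocount of 5, and 63 genes and 0 members without both siKctd10 libraries numbered 3. That last setting also gave 0 other p53 genes at D0 and 1 member at D2. This member was higher with siKctd10 and was neither Pmaip1 nor Trp53inp1, which both lost their D2 calls (limma adjusted p = 0.065 and 0.069).

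Same-numbered libraries correlated at -0.021 to 0.202 in their deviations, with 1 of 18 pairs over 0.1, that of the siKctd10 libraries numbered 3, and 1 library correlated best with its own number, so the numbers were not taken to pair them. With the replicate block, genes called were 319 at D0, 546 at D2, 4624 and 4707 for differentiation in siControl and siKctd10, and 42 for the interaction. Members were 4, 1, 18, 22 and 0, and other p53 genes 2, 3, 24, 18 and 0. Under the block Trp53inp1 had an adjusted p of 0.067 at D2 and Pmaip1 one of 0.081 for the interaction.

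Leaving out each library in turn gave 118 to 306 genes, 0 to 3 members and 0 to 2 other p53 genes at D0. At D2 it gave 315 to 682, 0 to 3 and 2 to 4. For differentiation it gave 12 to 20 members in siControl (12 without the D2 library numbered 3) and 18 to 23 in siKctd10, and for the interaction 52 to 82 genes, 0 members and 0 other p53 genes.

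Signs were followed for called p53 pathway genes and for Trp53, Mdm2, Cdkn1a and Kctd10. Among these, signs turned only for values near 0 that were never called. Other members, not followed singly, turned as well, since 27 were higher with siKctd10 at D2 as deposited but 23 and 22 under the scalings. Trp53 with siKctd10 at D0 was -0.05 (median-ratio), -0.07 (quantile), -0.07 (voom), -0.03 (identical introns) and -0.09 to 0.13 over single libraries left out. At D2 it was -0.08, -0.09 and -0.07 with the scalings and voom, -0.02 without both libraries numbered 3, and -0.09 to 0.10 over single libraries. Its interaction was -0.03, -0.01 and -0.14 with the scalings and without those libraries, and -0.12 to 0.10 over single libraries. In siControl differentiation Mdm2 was -0.04, 0.00 and -0.05 (-0.11 to 0.34 over single libraries), and Kctd10 0.00 with median-ratio scaling and -0.02 with voom.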
